A study of Homo sapiens with 8 samples.

Results

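The cytosolic ribosomal protein genes were examined in RMG1 cells, a long-established line from a human clear cell carcinoma of the ovary. Members were the protein-coding genes of the count table with an RPL or RPS symbol and number, with at most a closing A, L or X, together with RPLP0, RPLP1, RPLP2, RPSA and FAU. The rule found 82 genes among 57736 Ensembl IDs, 49 for the large subunit of the ribosome and 33 for the small subunit. RNA sequencing covered 4 groups of 2 libraries each. The groups were RMG1 cells with ARID1A knocked out by CRISPR (ARID1A KO), their ARID1A WT counterpart, cells with a short hairpin RNA against CAPH2 (CAPH2 KD), and cells with a control hairpin (shControl). By the labels, the ARID1A KO cells were CAPH2 WT, and the CAPH2 KD and shControl cells were both ARID1A WT. ARID1A belongs to the SWI/SNF complex, which moves nucleosomes, and CAPH2, encoded by NCAPH2, belongs to condensin II, which compacts chromosomes. The labels do not say whether knockout cells were 1 clone or a pool, or whether paired libraries were grown apart, so each p-value is set against a spread between libraries that could be purely technical.

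Each cytosolic ribosome carries a single copy of nearly all of these proteins, arranged around the ribosomal RNAs. The small subunit reads the messenger RNA, and the large subunit joins amino acids and releases the chain through an exit tunnel. Most of the messenger RNAs begin with a C followed by a run of pyrimidines, the 5′ terminal oligopyrimidine (TOP) motif, through which mTOR signalling controls their translation as a set. A few of the proteins also act away from the ribosome: RPL5, RPL11 and RPL23 bind the p53 ligase MDM2 when ribosome assembly is disturbed.

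RefSeq start regions (GRCh38.p14) are shown for 10 members on which the comparisons below turn, so that the shared start can be seen beside the values. RPL11, RPLP1, RPS25, RPS3, RPL41 and RPL27A were lower in ARID1A KO, RPSA, RPL14 and RPS15 were higher there, and RPS10 was higher in CAPH2 KD. Each run holds 50 bases before the annotated start and 20 bases from it, 5′ to 3′ on the gene's own strand. Capitals mark a C at the first transcribed base followed by at least 4 pyrimidines, up to the end of the pyrimidine run.
RPL11 (chr1:23691756-23691825, + strand, the second of 2 annotated starts): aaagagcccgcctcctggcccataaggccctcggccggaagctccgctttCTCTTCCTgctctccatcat
RPLP1 (chr15:69452768-69452837, + strand): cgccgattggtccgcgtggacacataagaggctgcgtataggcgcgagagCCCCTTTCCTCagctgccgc
RPS25 (chr11:119018324-119018393, - strand): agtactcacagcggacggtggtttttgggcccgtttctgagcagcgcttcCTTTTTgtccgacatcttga
RPS3 (chr11:75399468-75399537, + strand): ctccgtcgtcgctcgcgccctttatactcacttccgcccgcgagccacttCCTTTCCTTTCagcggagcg
RPL41 (chr12:56116583-56116652, + strand): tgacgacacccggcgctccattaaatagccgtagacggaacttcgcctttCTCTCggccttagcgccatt
RPL27A (chr11:8682742-8682811, + strand): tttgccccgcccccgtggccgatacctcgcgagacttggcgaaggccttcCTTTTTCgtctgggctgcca
RPSA (chr3:39406670-39406739, + strand): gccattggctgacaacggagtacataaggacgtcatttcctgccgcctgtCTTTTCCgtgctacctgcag
RPL14 (chr3:40457289-40457358, + strand): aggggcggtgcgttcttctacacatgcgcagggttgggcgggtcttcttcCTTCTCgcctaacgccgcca
RPS15 (chr19:1438346-1438415, + strand): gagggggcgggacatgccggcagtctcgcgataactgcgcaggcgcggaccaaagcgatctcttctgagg
RPS10 (chr6:34426050-34426119, - strand): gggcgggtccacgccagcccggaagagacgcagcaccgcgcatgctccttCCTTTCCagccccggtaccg

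The start motif was present in 9 of the 10 regions and was not at the annotated start of RPS15, nor at the first of the 2 annotated starts of RPL11, which is not shown. Over the 65 members matched in the RefSeq table, 47 (72.3%) had at least 1 annotated start with the motif, against 5.14% of the 27305 genes in the table. The motif was found in 14 of 17 matched members that were lower in ARID1A KO, in 3 of 4 that were higher, and in 30 of 44 that were not called, shares of 82.4%, 75.0% and 68.2% whose difference was not tested. Within 250 bases before to 50 after the start, on either strand, the ETS-type letters CCGGAA stood in 58.5% of members and in 20.1% of all genes in the table. The letters CCGGAA were in 10 of the 17 lower members, in 0 of the 4 higher ones and in 28 of the 44 that were not called. The YY1-type letters AAGATGGC stood in 10.8% of members and 3.52% of all genes, TATAA in 13 of 65 members and 24.2% of all genes, GGGCGG in 60.0% and 48.3%, and CACGTG in 6.15% and 8.77%. These are matches of letters in a window and not measured binding.

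Library totals ran from 24559547 to 37378691 counts, so 1 count was worth 0.0261 to 0.0413 CPM, the count relative to library size after scaling by trimmed means of M values (TMM). ARID1A had 6.66 and 5.61 CPM in ARID1A KO, against 8.80 and 12.1 CPM in ARID1A WT, a log2 fold change of -0.77 ± 0.16 (SE, edgeR adjusted p = 0.00274). NCAPH2 had 8.98 and 8.74 CPM in CAPH2 KD, against 24.0 and 25.8 CPM in shControl, a log2 fold change of -1.49 ± 0.10 (adjusted p = 1.84e-06). Both targeted genes were lower in the libraries labelled as perturbed, with no overlap with the controls. NCAPH2 was also lower in ARID1A KO, by a log2 change of -0.34 ± 0.09 (adjusted p = 0.0144).

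Together the 82 genes accounted for 2.71% to 2.98% of each library's counts. Their summed level was 26603 and 27827 CPM in the 2 ARID1A KO libraries, against 30134 and 26627 CPM in ARID1A WT. The sum was 29908 and 29719 CPM in CAPH2 KD, against 28931 and 29171 CPM in shControl. The knockout sums lay within or just under the range of the 2 ARID1A WT libraries, which were further apart than any other pair, and both knockdown sums lay slightly above both controls. The ratio of small to large subunit sums was 0.618 and 0.618 in ARID1A KO, against 0.629 and 0.680 in ARID1A WT, and 0.623 and 0.650 in CAPH2 KD, against 0.623 and 0.631 in shControl. RNA in bulk libraries is relative, so a change of all transcripts together would not appear in these sums.

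**Figure D1:**
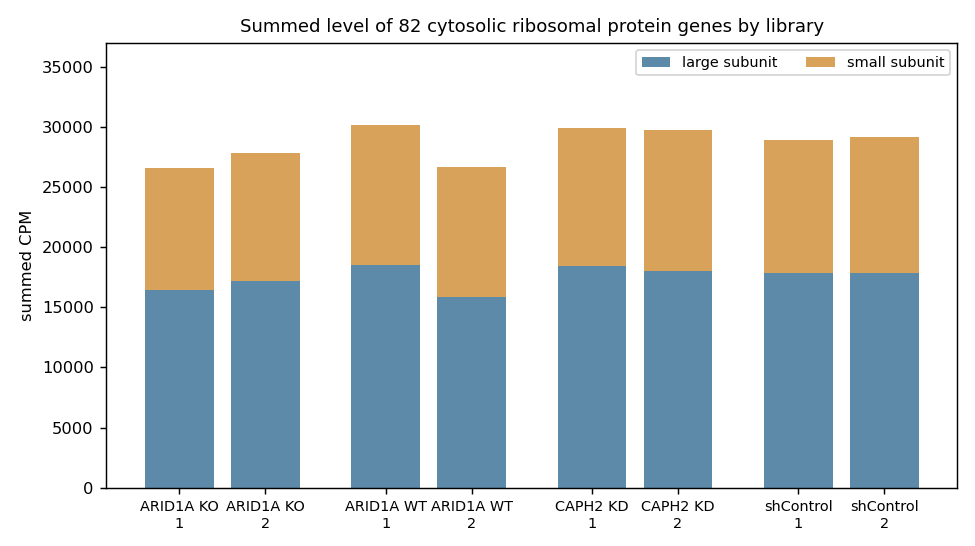
Summed CPM of the 82 cytosolic ribosomal protein genes in each library, split into large and small subunit genes; bars start at 0. The sums run from 26603 CPM in ARID1A KO 1 to 30134 CPM in ARID1A WT 1, and ARID1A WT 2, at 26627 CPM, lies beside the knockout libraries.

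Of the 82 genes, 79 passed the filter on low counts and were tested. The other 3 were the paralogs RPL3L, with 4 counts over all 8 libraries, and RPL10L and RPL39L, with 0 counts in every library; 0 counts allowed a level of up to 0.0783 to 0.124 CPM in a library, counting error only. RPL3L is known as the form of RPL3 in heart and skeletal muscle, and RPL10L as a testis form of RPL10. Their partners were well above that: RPL3 had 233.5 and 262.7 CPM in ARID1A KO, against 257.9 and 264.5 CPM in ARID1A WT, and RPL10 had 41.4 and 43.9 CPM in ARID1A KO, against 50.7 and 37.6 CPM in ARID1A WT. On a scale of CPM per kilobase of the median annotated transcript, the 5 highest members over all libraries were RPL23 with 1850, RPS24 with 1826, RPL24 with 1811, RPL12 with 1658 and RPL19 with 1583. At the low end, RPL21 had 20.9, RPS28 had 5.01 and RPS26 had 1.77 CPM per kilobase. Counts that the authors' tool gave to annotated pseudogenes were largest beside these 3 genes: pseudogenes held 76.4% of the summed counts of RPS26 and its copies, 65.7% for RPL21 and 56.6% for RPS28, so their levels are uncertain. The share was under 10% for 71 of the 82 members.

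ARID1A KO minus ARID1A WT asks whether losing the remodeller's subunit moved this gene set. In ARID1A KO, 28 of 79 members (35.4%) passed an adjusted p of 0.05, 6 higher and 22 lower. Over all 16657 genes tested the share was 34.5%, 16.8% higher and 17.8% lower, so the members were called about as often as other genes. Among other protein-coding genes with a mean of at least 10 CPM, a level that 77 members reach, 47.8% were called, 22.3% higher and 25.5% lower. The members' median log2 fold change was -0.05, against 0.00022 over all genes tested. Their log2 fold changes ran from -0.61 for RPS26, which did not pass the test (adjusted p = 0.133), to 0.41 for RPSA, so 0 of the 79 moved by 2-fold. By subunit, 4 rose and 11 fell of 46 large-subunit genes, and 2 rose and 11 fell of 33 small-subunit genes.

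The count varied with the library left out, from 12 to 42 calls, and the split between higher and lower turned on the ARID1A WT libraries. Without ARID1A WT 1 the calls became 22 higher and 20 lower, with a median of 0.02, while over all genes 32.1% were called. Without ARID1A WT 2 they became 4 higher and 33 lower, with a median of -0.13, while over all genes 28.4% were called. Without ARID1A KO 1 the members' median was -0.02, and without ARID1A KO 2 it was -0.08. The medians over all genes tested were -0.01 and -0.0044. Calls became fewer in both refits, among the members and over all genes. Scaled by total count only, the split was 9 higher and 17 lower, or 34.6% higher among the calls in place of 21.4%. In all 15 refits of the comparison, 11 members kept their call, among them RPL14, RPSA and RPS15, which were higher, and RPL11, RPL17, RPL23, RPL27A, RPL41, RPL8 and RPS3, which were lower.

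**Figure D2:**
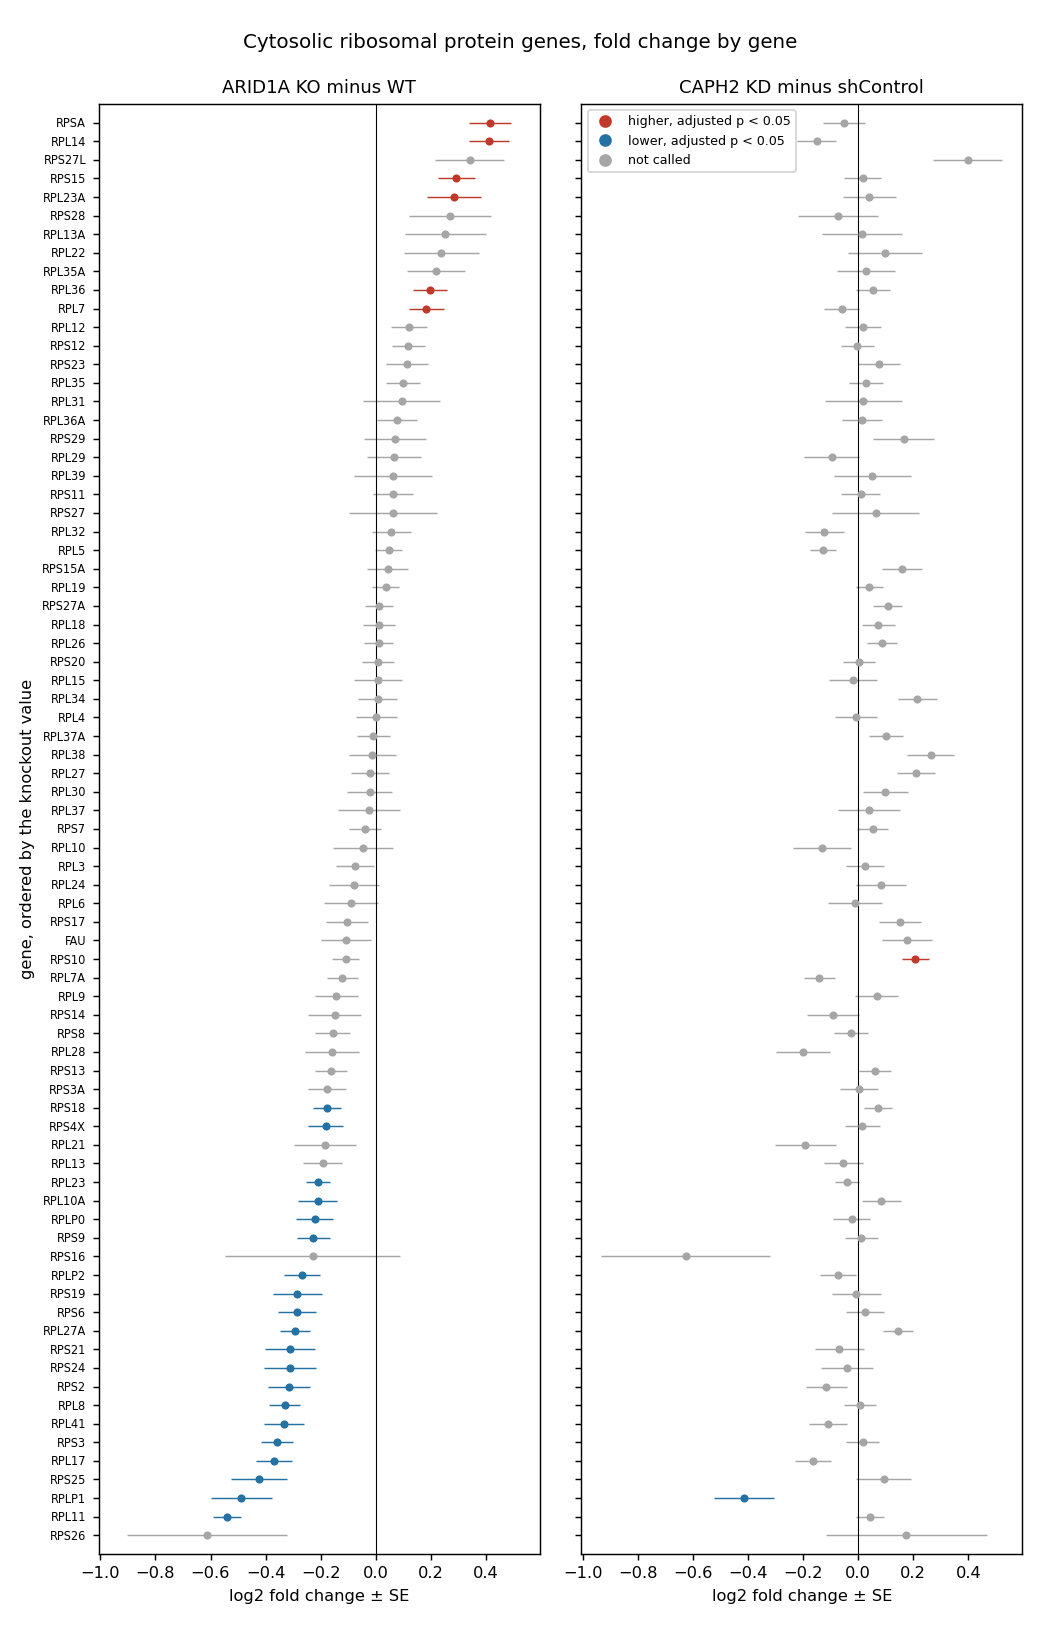
Log2 fold change with its standard error (horizontal axis) for 77 of the 79 tested members, ordered by the knockout value, for ARID1A KO minus WT on the left and CAPH2 KD minus shControl on the right. Red and blue points passed an adjusted p of 0.05, 26 on the left and 2 on the right, and all points lie between -0.63 and 0.41.

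Among the 3 genes whose proteins bind MDM2, RPL11 moved furthest. RPL11, which joins RPL5 and the 5S ribosomal RNA in the central protuberance of the large subunit, had 272.5 and 281.9 CPM in ARID1A KO, against 409.6 and 396.0 CPM in ARID1A WT. The knockout libraries were well below both others, with a log2 fold change of -0.54 ± 0.05 (SE, edgeR adjusted p = 9.28e-06). RPL11 was also intermediate in the hairpin lines, at 330.0 and 328.3 CPM in CAPH2 KD, against 311.8 and 327.3 CPM in shControl. RPL23 had 989.4 and 1017 CPM in ARID1A KO, against 1176 and 1144 CPM in ARID1A WT, again with no overlap (-0.21 ± 0.04, adjusted p = 0.00323). RPL5 had 690.4 and 701.2 CPM in ARID1A KO, against 694.8 and 652.0 CPM in ARID1A WT. The RPL5 groups overlapped and the log2 fold change was 0.05 ± 0.05, not past the test.

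All 3 genes of the ribosomal stalk, which recruits the translation factors, were called lower in ARID1A KO, against 17.8% of all genes tested. The difference between this short list and all genes was not tested. RPLP1 had 120.8 and 107.6 CPM in ARID1A KO, against 139.9 and 180.3 CPM in ARID1A WT (-0.49 ± 0.11, adjusted p = 0.00513). RPLP2, its partner in the stalk, had 210.4 and 216.8 CPM in ARID1A KO, against 244.6 and 270.1 CPM in ARID1A WT (-0.27 ± 0.07, adjusted p = 0.00771). RPLP0, the stalk's base, had 909.3 and 1027 CPM in ARID1A KO, against 1182 and 1077 CPM in ARID1A WT (-0.22 ± 0.07, adjusted p = 0.0236). In each of the 3, both knockout libraries were below both ARID1A WT libraries. RPLP1 lost its call without ARID1A KO 2 (adjusted p = 0.0608), RPLP2 without ARID1A KO 1 (adjusted p = 0.0653), and RPLP0 without ARID1A KO 1 (adjusted p = 0.220) or without ARID1A WT 1.

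Around the catalytic centre and the exit tunnel, RPL8 and RPL17 fell and RPL23A rose. RPL8 was 1 of 4 genes listed for the peptidyl transferase core, with RPL3, RPL4 and RPL10 (25% called, against 34.5% of all genes tested). It had 95.8 and 96.8 CPM in ARID1A KO, against 125.6 and 116.8 CPM in ARID1A WT (-0.33 ± 0.06, adjusted p = 0.000944). RPL17 and RPL23A were 2 of 7 genes listed for the exit of the polypeptide (28.6% called). RPL17, at the tunnel wall, had 49.3 and 51.3 CPM in ARID1A KO, against 68.5 and 61.5 CPM in ARID1A WT (-0.37 ± 0.07, adjusted p = 0.00113). RPL23A, a docking site for the signal recognition particle at the tunnel mouth, had 78.1 and 77.6 CPM in ARID1A KO, against 71.3 and 56.7 CPM in ARID1A WT (0.28 ± 0.10, adjusted p = 0.0437). The groups did not overlap for these 3 genes, but the RPL23A call was lost without ARID1A WT 2, without ARID1A KO 1 or without ARID1A KO 2, with adjusted p up to 0.280.

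Other large-subunit genes that fell included RPL41, the shortest ribosomal protein, and RPL27A. RPL41 had 51.0 and 50.4 CPM in ARID1A KO, against 68.6 and 59.3 CPM in ARID1A WT (-0.33 ± 0.07, adjusted p = 0.00356). RPL27A had 140.7 and 150.5 CPM in ARID1A KO, against 181.3 and 175.8 CPM in ARID1A WT (-0.29 ± 0.05, adjusted p = 0.00153). For both, the knockout libraries were the lowest of the 4. Pseudogenes held 34.2% of the counts of RPL41 and its copies, and adding them left RPL41 called. RPL10A, the protein of the L1 stalk, was also called lower, and kept that call in 1 of 4 refits that left out a library.

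The largest rise among large-subunit genes was in RPL14, a protein of the solvent face. It had 189.4 and 199.6 CPM in ARID1A KO, against 156.6 and 136.2 CPM in ARID1A WT (0.41 ± 0.07, adjusted p = 0.000985). RPL36 had 119.6 and 126.0 CPM in ARID1A KO, against 102.6 and 111.5 CPM in ARID1A WT (0.20 ± 0.06, adjusted p = 0.0303). RPL7 had 59.1 and 60.6 CPM in ARID1A KO, against 52.2 and 53.2 CPM in ARID1A WT (0.18 ± 0.06, adjusted p = 0.0401). In all 3 genes both knockout libraries were above both ARID1A WT libraries, but RPL36 kept its call in 1 of 4 refits that left out a library and RPL7 in 0 of 4, with adjusted p up to 0.195 and 0.180.

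In the small subunit, genes of the messenger RNA path moved in both directions, with 1 higher and 3 lower of 7 listed (57.1% called, against 34.5% of all genes tested). RPS3, which lines the entry channel and is also known in DNA repair, had 227.2 and 247.4 CPM in ARID1A KO, against 292.8 and 315.5 CPM in ARID1A WT (-0.36 ± 0.06, adjusted p = 0.000664). RPS2, beside it at the entry, had 36.1 and 38.9 CPM in ARID1A KO, against 44.0 and 49.3 CPM in ARID1A WT (-0.32 ± 0.07, adjusted p = 0.00687). RPS15, near the decoding centre, had 47.4 and 45.6 CPM in ARID1A KO, against 38.3 and 37.6 CPM in ARID1A WT (0.29 ± 0.07, adjusted p = 0.00540). None of the 3, already picked by the test, overlapped between groups. RPS9 was the third gene of the list to fall and lost its call without ARID1A KO 1 (adjusted p = 0.114), and the RPS2 call was lost without ARID1A WT 2 or without ARID1A KO 1 (adjusted p up to 0.0707).

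RPSA, which is both a small-subunit protein and the precursor of a laminin receptor, rose. It had 61.8 and 69.8 CPM in ARID1A KO, against 51.7 and 47.2 CPM in ARID1A WT (0.41 ± 0.08, adjusted p = 0.00136). Both knockout libraries were above both ARID1A WT libraries.

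RPS25, needed for initiation at several viral internal entry sites, had 302.3 and 314.0 CPM in ARID1A KO, against 459.5 and 367.7 CPM in ARID1A WT (-0.42 ± 0.10, adjusted p = 0.00676). RPS24 had 855.2 and 921.7 CPM in ARID1A KO, against 1247 and 958.8 CPM in ARID1A WT (-0.31 ± 0.09, adjusted p = 0.0251). RPS21 had 92.7 and 97.6 CPM in ARID1A KO, against 104.3 and 131.7 CPM in ARID1A WT (-0.31 ± 0.09, adjusted p = 0.0190). The 2 ARID1A WT libraries of these genes were far apart from each other, though both were above the knockout. RPS25 lost its call without ARID1A KO 1 (adjusted p = 0.0531). RPS24 was not called without ARID1A WT 1, where its log2 fold change was -0.11, and RPS21 was not called without ARID1A WT 2, where it was -0.13; both also lost the call without either ARID1A KO library. Other small-subunit genes called lower were RPS4X, RPS6, RPS18 and RPS19. Of 4 refits that left out a library, RPS6 and RPS18 kept the call in 3, both losing it without ARID1A KO 1. RPS4X kept it in 2 of the 4, losing it without ARID1A WT 1 or without ARID1A KO 1, and also lost it under 3 other scalings and with the replicate block. RPS19 kept it in 1 of the 4, the refit without ARID1A WT 1. Of 18 genes listed for Diamond-Blackfan anaemia, an inherited failure of red cell production, RPL11, RPS19 and RPS24 fell and 0 rose, 16.7% of the list, against 34.5% of all genes tested.

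**Figure D3:**
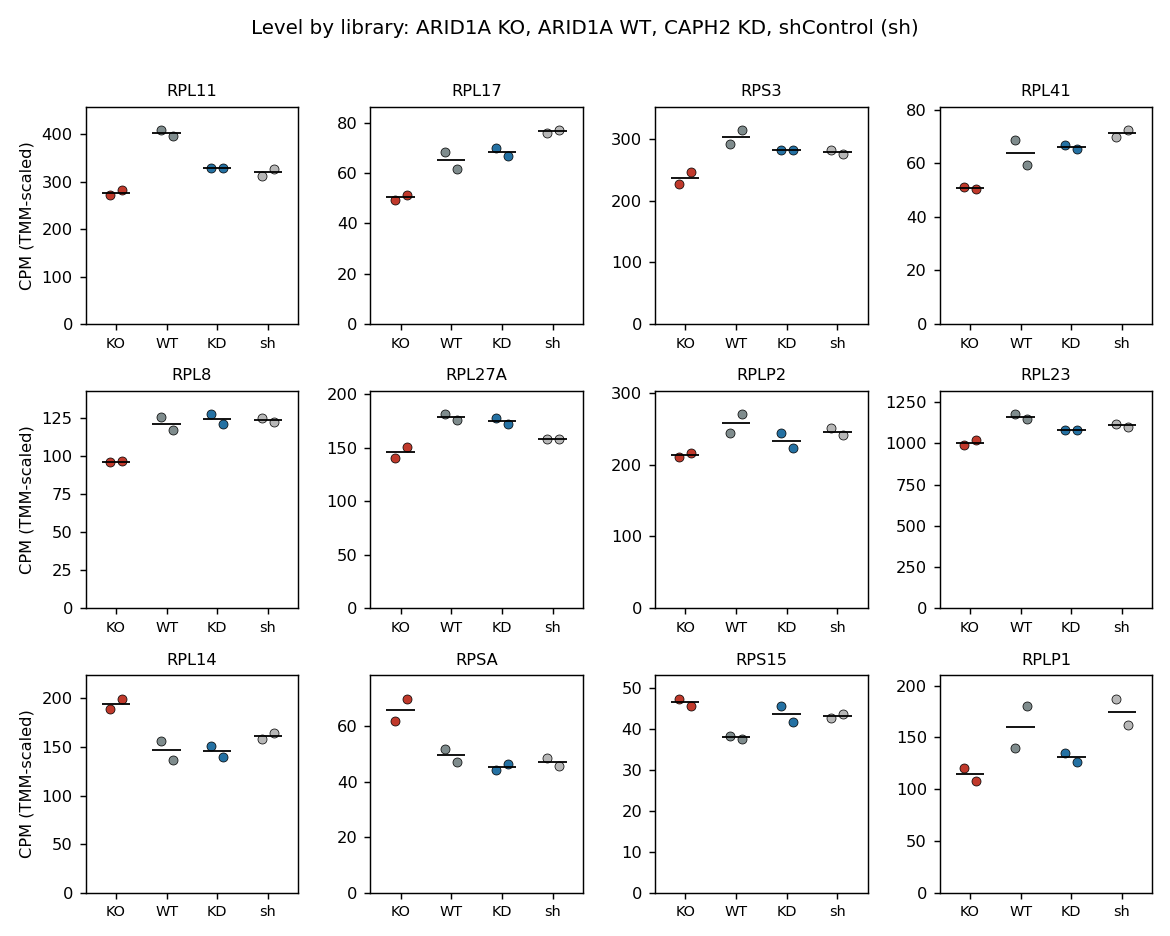
TMM-scaled CPM (vertical axes from 0) in the 2 libraries of each group, with bars at the group mean, for 10 of the members that kept their knockout call in all refits and for RPLP1 and RPLP2. Both ARID1A KO libraries lie below both ARID1A WT libraries in RPL11, RPL17, RPS3, RPL41, RPL8, RPL27A, RPLP2, RPL23 and RPLP1, and above them in RPL14, RPSA and RPS15.

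The fusion genes and paralogs did not pass the test. RPS27A, made as a fusion with ubiquitin, had 764.2 and 785.5 CPM in ARID1A KO, against 796.2 and 740.7 CPM in ARID1A WT (adjusted p = 0.889). FAU, a fusion of a ubiquitin-like protein with the small-subunit protein eS30, had 53.4 and 52.9 CPM in ARID1A KO, against 63.4 and 51.4 CPM in ARID1A WT (adjusted p = 0.399). The groups overlapped in both. RPS27L, a p53-induced paralog of RPS27, had 72.2 and 71.5 CPM in ARID1A KO, against 66.0 and 47.7 CPM in ARID1A WT, and 54.1 and 64.6 CPM in CAPH2 KD, against 46.5 and 43.6 CPM in shControl. RPS27L was above its controls in both comparisons without passing either test (0.34 ± 0.13, adjusted p = 0.0557, and 0.40 ± 0.13, adjusted p = 0.0560). RPS27 itself had 158.9 and 178.6 CPM in ARID1A KO, inside the 199.8 and 123.8 CPM of ARID1A WT (adjusted p = 0.805). RPL39, a protein of the exit tunnel, likewise had 122.5 and 125.4 CPM in ARID1A KO, inside the 144.4 and 93.1 CPM of ARID1A WT (adjusted p = 0.772).

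The 2 ARID1A WT libraries differed more over these genes than the libraries of any other group. Replicates differed by over 0.2 on the log2 scale in 4 of 79 members in ARID1A KO, against 36 in ARID1A WT, and in 10 in CAPH2 KD, against 3 in shControl. The share beyond 0.2 over all genes tested was not counted, so the difference may not be particular to the members. The median difference, replicate 2 minus replicate 1, was 0.07 in ARID1A KO, -0.13 in ARID1A WT, -0.04 in CAPH2 KD and 0.01 in shControl. RPL31 and RPS16 were chosen as examples after their values were seen. RPL31 had 1031 and 1100 CPM in ARID1A KO, between the 1209 and 787.8 CPM of ARID1A WT. RPS16 varied in every group, with 27.1 and 14.8 CPM in ARID1A KO, against 19.1 and 29.7 CPM in ARID1A WT, and with 28.2 and 22.1 CPM in CAPH2 KD, against 50.4 and 27.4 CPM in shControl. Across the 79 members, the difference between the ARID1A WT libraries had a Spearman rho of 0.29 with the GC content of the transcript and 0.0017 with its length, a description over genes that share libraries.

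**Figure D4:**
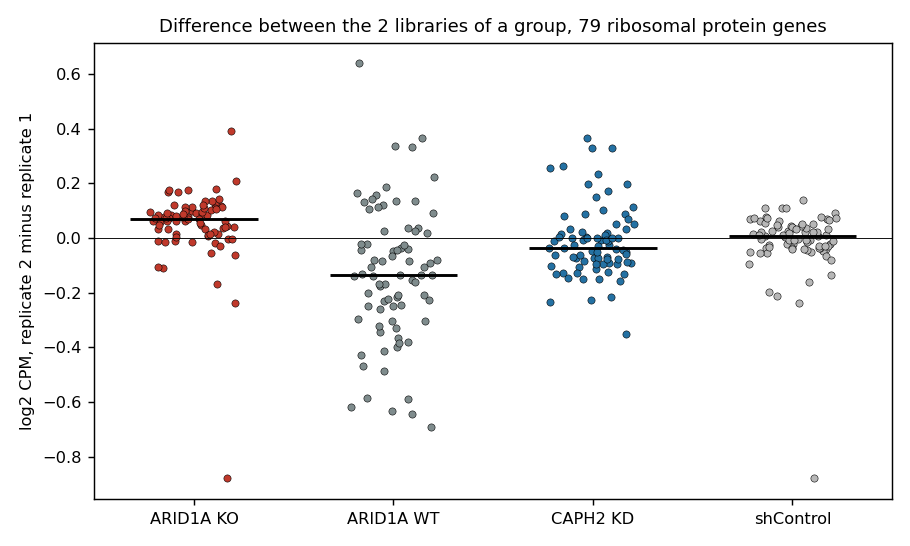
Log2 CPM of replicate 2 minus that of replicate 1 within each group (vertical axis) for each of the 79 tested members, with bars at the median. In ARID1A WT 36 members lie beyond 0.2, and in shControl 3 do, among them RPS16 at -0.88, the lowest point of that group.

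Several called members lay among neighbours that moved the same way. For each member, the median log2 fold change of the 40 nearest tested genes on its chromosome was taken, leaving out members. That median was -0.54 around RPL11 on chromosome 1, -0.50 around RPS25 on chromosome 11, -0.38 around RPS24 on chromosome 10, -0.34 around RPL17 on chromosome 18 and -0.29 around RPLP2 on chromosome 11. It was 0.32 around RPL14 and 0.28 around RPSA, which lie on chromosome 3 with 6 tested genes between them and share 34 of their 40 neighbours, so they are not separate observations of a region. After subtraction of that median RPL11 stood at 0.0039, RPL17 at -0.03, RPS25 at 0.08, RPL14 at 0.09 and RPSA at 0.13. Other members moved where their neighbours did not: the neighbour median was -0.02 around RPS3, -0.04 around RPL23, 0.03 around RPL41 and -0.07 around RPL27A. It had the opposite sign around RPLP1 (0.16) and RPS15 (-0.22). Over the 79 members the fold change and the neighbour median had a Spearman rho of 0.34, a description over genes that share libraries and, in places, neighbours. Copy number was not measured here, and whether a regional change and a change of the gene itself differ in these cells was not tested.

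**Figure D5:**
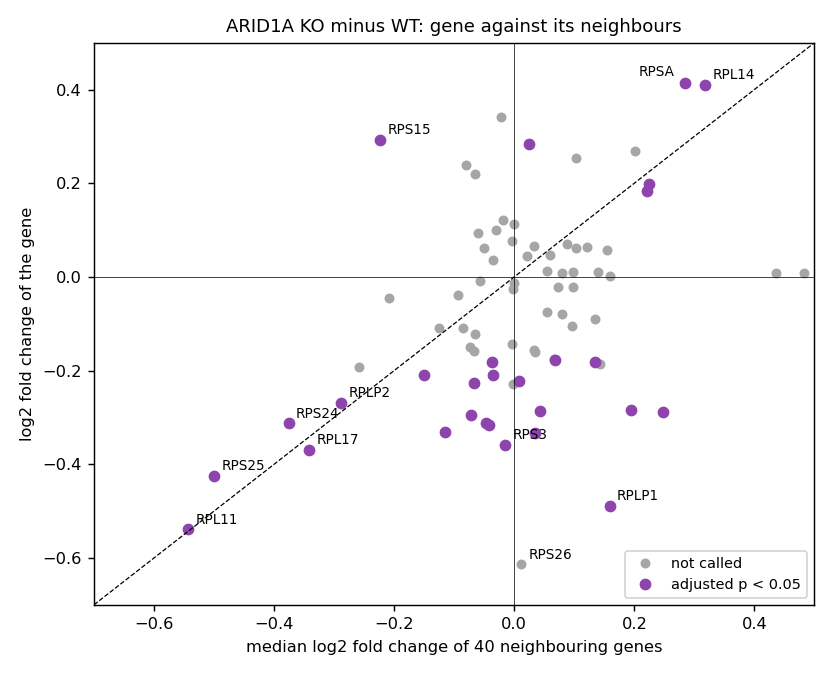
Log2 fold change of each member in ARID1A KO minus WT (vertical axis) against the median of its 40 nearest tested neighbours (horizontal axis); the dashed line marks equal values. RPL11, RPS25, RPL17, RPS24 and RPLP2 lie near the line at the lower left and RPL14 and RPSA at the upper right, while RPLP1 and RPS15 lie across from their neighbours.

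CAPH2 KD minus shControl asks whether lowering the condensin II subunit moved the same genes. In CAPH2 KD, 2 of 79 members (2.53%) passed an adjusted p of 0.05, 1 higher and 1 lower, against 15.8% of all 16657 genes tested (7.62% higher and 8.22% lower) and 25.5% of other protein-coding genes with a mean of at least 10 CPM. The median log2 fold change was 0.02, against 0.00 over all genes tested. RPS10, whose gene is among those of Diamond-Blackfan anaemia, had 416.1 and 418.8 CPM in CAPH2 KD, against 358.6 and 364.3 CPM in shControl (0.21 ± 0.05, adjusted p = 0.0146). RPLP1 had 135.3 and 126.7 CPM in CAPH2 KD, against 187.3 and 161.9 CPM in shControl (-0.41 ± 0.11, adjusted p = 0.0251). Neither gene overlapped between groups. The RPS10 call was lost without any of the 4 libraries, with adjusted p up to 0.137 and a log2 change of 0.20 to 0.22. The RPLP1 call was lost without shControl 1, where the log2 change was -0.31, and without CAPH2 KD 1 or 2. The other 2 stalk genes did not pass the test: RPLP0 had 1166 and 1087 CPM in CAPH2 KD, against 1150 and 1139 CPM in shControl, and RPLP2 had 244.2 and 222.7 CPM in CAPH2 KD, against 250.5 and 241.0 CPM in shControl.

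The number of calls in CAPH2 KD varied with the test. It was 5 (5 higher, 0 lower) with DESeq2, or 6.25% of members, against 14.8% of all genes. With limma-voom it was 6 (5 and 1), or 7.59% against 16.4%. With no filter it was 9 (7 and 2), or 11.25% against 10.3%. The second share covers 29952 genes, among them those with counts too low for the filter. It is therefore not a like background for the members. It was 14 (8 and 6) when only the 4 libraries of the comparison were fitted. With only those 4 libraries, 22.2% of all genes tested were called, and 17.7% of members.

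The effects of the 2 perturbations were compared directly, as the ARID1A KO effect minus the CAPH2 KD effect. In 13 of 79 members (16.5%) the effects differed, 3 higher and 10 lower, against 26.3% of all genes tested (12.3% higher and 14.0% lower). RPL11 had the largest difference, -0.58 ± 0.07 (adjusted p = 0.000117), followed by RPL14 at 0.56 ± 0.10 (adjusted p = 0.00167). RPS25 differed by -0.52 ± 0.14 (adjusted p = 0.0192), a call kept in 4 of 8 refits that left out a library and lost with DESeq2, and RPSA by 0.46 ± 0.11 (adjusted p = 0.00793). Those 4 genes had knockdown log2 fold changes of 0.04, -0.15, 0.09 and -0.05, none past the test. RPL27A differed by -0.44 ± 0.08 (adjusted p = 0.00141), with 177.9 and 172.3 CPM in CAPH2 KD, against 158.3 and 158.1 CPM in shControl, opposite in sign to the knockout. RPS3 differed by -0.37 and RPL8 by -0.34, the second not called without CAPH2 KD 1 (adjusted p = 0.0583). RPLP1, lower in both perturbations, had a difference of -0.07 ± 0.16 (adjusted p = 0.780).

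Between the 2 unperturbed lines, shControl minus ARID1A WT, 4 of 79 members (5.06%) passed the test, 2 higher and 2 lower, against 19.2% of all genes tested (9.13% higher and 10.1% lower). RPL11 was lower in shControl by -0.33 ± 0.05 (adjusted p = 0.00110), and RPL27A by -0.17 ± 0.05 (adjusted p = 0.0465). The median of the 40 neighbours in this contrast was -0.23 around RPL11 and -0.05 around RPL27A. RPL17 and RPL36A were higher, by 0.24 ± 0.06 (adjusted p = 0.0264) and 0.28 ± 0.07 (adjusted p = 0.0214). RPL17 stood at 75.9 and 77.2 CPM in shControl and at 68.5 and 61.5 CPM in ARID1A WT. ARID1A WT serves as the control of both this contrast and the knockout contrast, so their values for RPL11 are not independent. The members' median log2 fold change was 0.02 in the full fit, 0.08 without ARID1A WT 1 and -0.01 without ARID1A WT 2. It was 0.01 without shControl 1 and 0.02 without shControl 2. Whether members were called more or less often than all genes depended on which ARID1A WT library was kept. RPL11 kept its call in all 4 refits that left out a library, while RPL17, RPL27A and RPL36A each kept theirs in 1 of 4. Pseudogenes held 39.7% of the counts of RPL36A and its copies, and with pseudogene counts added its log2 change was 0.04 (adjusted p = 0.639).

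Genes that work with ribosomal proteins are given from lists of known members, by counts from the same fit. The shares called are set against those of all genes tested, 34.5% in ARID1A KO (16.8% higher and 17.8% lower), 15.8% in CAPH2 KD (7.62% and 8.22%) and 19.2% in shControl minus ARID1A WT (9.13% and 10.1%). Other ribosomal protein genes outside the rule included RPL22L1, the paralog of RPL22, which had 22.6 and 24.7 CPM in ARID1A KO, against 16.6 and 11.9 CPM in ARID1A WT (0.74 ± 0.14, adjusted p = 0.00210). In ARID1A KO 2 of those 6 genes (33.3%) rose and 0 fell, while in CAPH2 KD 0 of the 6 passed the test. Of 17 elongation factors and other genes whose messages carry the TOP motif, 0 rose and 6 fell in ARID1A KO (35.3% called), with a median of -0.05. TPT1, the translationally controlled tumour protein, fell most, with 1369 and 1445 CPM in ARID1A KO, against 3276 and 2821 CPM in ARID1A WT (-1.12 ± 0.07, adjusted p = 2.76e-07). PABPC1, the cytoplasmic poly(A)-binding protein, had 245.9 and 245.7 CPM in ARID1A KO, against 335.0 and 376.4 CPM in ARID1A WT (-0.53 ± 0.06, adjusted p = 3.72e-05). In CAPH2 KD, 0 of the 17 rose and 3 fell (17.6% called), among them HNRNPA1 (-0.26) and NAP1L1 (-0.19).

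Of 31 ribosome assembly and export factors tested, 11 rose and 1 fell in ARID1A KO, with a median of 0.14 and 38.7% called, against 34.5% of all genes. WDR12, a subunit of the PeBoW complex of large-subunit maturation, had 116.6 and 124.7 CPM in ARID1A KO, against 93.5 and 80.5 CPM in ARID1A WT (0.47 ± 0.08, adjusted p = 0.000514). PDCD2L, a carrier of RPS2, rose (0.46), and BCCIP was the 1 that fell (-0.19). Of 76 mitochondrial ribosomal protein genes, 18 rose and 3 fell in ARID1A KO, with a median of 0.14 and 27.6% called. The difference between either list and the members was not tested. The largest changes were in MRPL41 (1.62 ± 0.44, adjusted p = 0.0145) and MRPS2 (adjusted p = 0.0314), both under 6 CPM in all libraries, and in MRPS15 (-0.55) and MRPL32 (-0.36). In shControl minus ARID1A WT the assembly list had 2 higher and 10 lower (38.7% called), and the mitochondrial list 2 higher and 11 lower (17.1% called). In CAPH2 KD, 3 assembly factors rose, led by GTPBP4 (0.66) and GNL2 (0.42), and 0 fell (9.68% called), while 4 mitochondrial ribosomal protein genes rose and 4 fell (10.5% called). These lists were not recomputed with a library left out.

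Of 15 RNA polymerase I genes, 3 rose and 0 fell in ARID1A KO (20% called, against 34.5% of all genes). POLR1F, a subunit of the enzyme, had 87.4 and 88.1 CPM in ARID1A KO, against 56.2 and 55.1 CPM in ARID1A WT (0.66 ± 0.06, adjusted p = 8.07e-06), and 75.9 and 83.3 CPM in CAPH2 KD, against 54.6 and 52.6 CPM in shControl (0.57 ± 0.06, adjusted p = 6.85e-05). POLR1F was higher in both perturbed groups, without overlap with the controls, while POLR1G (-0.46) and UBTF (-0.29) fell in CAPH2 KD, where 1 of the 15 rose and 3 fell (26.7% called, against 15.8% of all genes). Of 28 snoRNP and pre-rRNA processing genes, 5 rose and 3 fell in ARID1A KO (28.6% called), among them WDR75 (0.38), NOP10 (0.29), DDX10 (-0.44) and NOP56 (-0.35). In CAPH2 KD, 1 rose and 5 fell (21.4% called), with UTP20 at -0.48, NOLC1 at -0.32 and NOP56 at 0.19. Of 31 initiation factors, 3 rose and 8 fell in ARID1A KO (35.5% called), including EIF2B3 (0.35), EIF4E (0.29), EIF2B2 (-0.36) and EIF5 (-0.33), and EIF2B2 alone fell in CAPH2 KD (-0.38, 3.23% called).

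Among 25 tested regulators of ribosomal protein synthesis, 1 rose and 4 fell in ARID1A KO (20% called, against 34.5% of all genes), and 2 rose and 4 fell in CAPH2 KD (24.0% called, against 15.8%). EIF4EBP1, the mTOR-controlled repressor of cap-dependent translation, had 24.2 and 23.2 CPM in CAPH2 KD, against 45.9 and 46.8 CPM in shControl (-0.97 ± 0.07, adjusted p = 1.99e-06). MYC, which activates ribosome genes, had 41.5 and 41.1 CPM in CAPH2 KD, against 57.2 and 50.4 CPM in shControl (-0.38 ± 0.08, adjusted p = 0.0101). Both were clearly lower in the knockdown libraries. MTOR had 121.1 and 111.3 CPM in ARID1A KO, against 146.6 and 140.9 CPM in ARID1A WT (-0.31 ± 0.06, adjusted p = 0.00155). YY1 had 80.9 and 86.8 CPM in ARID1A KO, against 93.3 and 115.6 CPM in ARID1A WT (-0.32 ± 0.09, adjusted p = 0.0176). The YY1-type letters AAGATGGC stood in 1 of 17 matched members lower in ARID1A KO, 0 of 4 higher and 6 of 44 not called. LARP4, an RNA-binding protein that stabilises messages, rose in both perturbations, by 0.52 in ARID1A KO and 0.24 in CAPH2 KD, and MXI1, an antagonist of MYC, rose by 0.38 in CAPH2 KD.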

How the data were processed

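RNA from 8 RMG1 libraries was analysed, in 4 groups of 2 taken from the labels. Per the labels' protocols, RNA was isolated with Trizol, treated with DNase and prepared with the TruSeq Total RNA kit. A single table of RSEM expected counts, 1 column per library, was deposited by the authors. Per the submitters' processing notes, Bowtie2 and RSEM 1.2.12 were used with hg19, with the annotation release and the use of strand not given in the sources used. All deposited expected counts were whole already (0 needed rounding). RSEM shares reads among near-identical copies, so members with many pseudogenes are uncertain.

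Symbols were matched by Ensembl ID, also through GENCODE 29 (GRCh38), which also gave biotype, chromosome, neighbour order, GC content and the median length of a gene's transcripts. Promoter sequences are from RefSeq (GRCh38.p14), which matched 65 of 82 members. No hg19 coordinates are given. All 16657 genes that passed filterByExpr were fitted in R 4.3.3 with edgeR 4.0.16 (TMM, 4 group means, all 8 libraries, 4 residual degrees of freedom, quasi-likelihood F-test). P-values were adjusted by Benjamini-Hochberg over all genes tested, and an adjusted p under 0.05 was counted as a call. An absence of overlap between groups was described mainly for genes already called. Its share over all genes was not counted, so it adds no separate support to a call. The common biological coefficient of variation was 7.74%. The code was tested on simulated data. Alternatives included DESeq2 1.42.0, limma-voom 3.58.1, other scalings, a length and GC offset, pseudogene counts added to members, the replicate block and each library left out.

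The members and lists were chosen with earlier results of these data known. Some genes are not reported here by name. Otherwise every called member is named, and values are given for the 10 largest falls and 10 largest rises in either perturbation, the 8 largest differences between effects, the highest and lowest levels, and role groups. Per list, up to 2 called genes in each direction are named.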

Additional observations from a re-analysis of the deposited data

Results flagged for a closer look

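In 13 members the ARID1A KO effect and the CAPH2 KD effect differed by an edgeR test of the difference itself (adjusted p under 0.05 over all genes tested). The difference, in log2 units as knockout effect minus knockdown effect, was 0.56 for RPL14, 0.46 for RPSA and 0.28 for RPS15. Among those lower it was -0.58 for RPL11, -0.52 for RPS25, -0.44 for RPL27A, -0.37 for RPS3, -0.34 for RPL8, -0.32 for RPS10, -0.31 for RPS6, -0.29 for RPL10A and -0.25 for RPS18. RPL14, RPSA, RPL11, RPL27A, RPS10 and RPS3 kept this call in all 18 refits of that contrast, and RPL8 lost it in 1. Of 8 refits that left out a library, RPS18 and RPS25 kept it in 4, RPS6 in 3, RPL10A in 2 and RPS15 in 1; RPS25 and RPS15 also lost it with DESeq2, RPS6 and RPL10A by total count, and RPL10A and RPS15 had an adjusted p of 0.0495 to begin with. RPS10 was the 1 gene of the 13 whose knockdown effect alone passed the test.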

How the results depend on the processing

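Calls are counts of members with adjusted p under 0.05. In ARID1A KO minus WT, 28 calls became 18 when 4 libraries were fitted, and 12 to 42 with 1 library left out, with a median of -0.132 to 0.0187; other alternatives gave 23 to 33. In CAPH2 KD minus shControl, 2 calls became 6 by total count (7.59% of members, against 15.5% of all genes). They became 5 with DESeq2, 6 with limma-voom, 9 with no filter and 14 with 4 libraries, with the shares given above. With 1 library left out the median ran from -0.0099 to 0.0353. The differences between effects numbered 13, against 21 with no filter and 7 to 32 with 1 library left out. shControl minus ARID1A WT gave 4, against 14 with no filter, 6 with DESeq2 or the length and GC offset, 1 with 4 libraries and 1 to 31 with 1 library left out. Subtracting the neighbour median turned the sign of RPL11 (0.0039), RPL36 (-0.0266), RPL7 (-0.0368), RPLP2 (0.0191), RPS24 (0.0637) and RPS25 (0.0754) in ARID1A KO, of RPL11 in the difference (0.13) and of RPL17 in shControl minus WT (-0.0577). With 1 ARID1A WT library left out, values lay on both sides of 0: RPL24 ran from -0.19 (without WT 2) to 0.18 (without WT 1) in shControl minus WT, RPL39 from -0.22 to 0.41 in ARID1A KO and from -0.27 to 0.36 in the difference, and RPS27 from -0.24 to 0.44 in ARID1A KO and from -0.31 to 0.38 in the difference. The cause was not tested. With the replicate block, calls were 26, 2, 12 and 3 in the 4 contrasts. These were 32.9%, 2.53%, 15.2% and 3.80% of members, against 33.0%, 14.9%, 25.3% and 18.2% of all genes. The labels name no shared batch, and deviations of same-numbered libraries correlated at -0.02 to 0.03 over all genes. The numbers were therefore not taken to pair the libraries. Over the 79 members the correlations ran from -0.40 (ARID1A WT with ARID1A KO) to 0.69 (ARID1A KO with shControl), which does not settle the pairing. RPS16 was the lowest member in ARID1A KO and in shControl (both -0.88, replicate 2 minus replicate 1) and the highest in ARID1A WT (0.64). The correlations were not recomputed without RPS16, so they may rest largely on that gene. With 2 libraries per group, leaving one out assumes that the lone library varies like the other groups.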

Other observations

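Pseudogenes of the members were counted separately by the authors' tool. GENCODE lists 1580 of them, of which 734 had a count and 139 passed the filter. In ARID1A KO, 6 of the 139 rose and 10 fell (11.5% called, against 34.5% of all genes tested), with a median log2 fold change of -0.30. All 1580 pseudogenes together took 2.44% to 2.86% of the counts of members and pseudogenes in a library. RPL22P1, the one with the highest mean count, had 179.2 and 182.9 CPM in ARID1A KO, against 170.8 and 90.6 CPM in ARID1A WT (0.47 ± 0.20, edgeR adjusted p = 0.0932). RPL22 was likewise lower in ARID1A WT 2 than in ARID1A WT 1, with 636.3 and 686.5 CPM in ARID1A KO, against 673.5 and 448.0 CPM in ARID1A WT. RPL3P4 had 111.7 and 131.0 CPM in ARID1A KO, against 148.5 and 140.8 CPM in ARID1A WT (-0.25 ± 0.08, adjusted p = 0.0247), and RPL36AP37 had 101.2 and 96.4 CPM in ARID1A KO, against 119.6 and 139.0 CPM in ARID1A WT (-0.39 ± 0.12, adjusted p = 0.0222). RPL3P4 was higher in CAPH2 KD (0.27 ± 0.08, adjusted p = 0.0346), while its parent RPL3 had a log2 fold change of 0.02 there. Reads of a pseudogene and of its parent may have been exchanged, which was not tested.

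Members also host small nucleolar RNAs in their introns. Of 28 tested members with at least 1 annotated snoRNA inside the gene, 2 rose and 7 fell in ARID1A KO, with a median of -0.06, and of the other 51, 4 rose and 15 fell, with a median of -0.04. Among the hosts, 32.1% were called, and among the rest 37.3%, against 34.5% of all genes tested. All 6 members on chromosome 11 had negative values in ARID1A KO, against 46 of all 79 tested members. RPL27A, RPLP2, RPS25 and RPS3 were called lower, 66.7% of the 6, against 17.8% of all genes tested. Other genes of chromosome 11 were not counted in this way. This chromosome was picked out after the values were seen, and no test was made of it.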
